A study of Mus musculus with 5 samples.

Results

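Oxidative phosphorylation is carried out by 5 protein complexes of the mitochondrial inner membrane, and most of their subunits are encoded in the nucleus. The 78 genes described here are the nuclear subunit genes whose symbols begin with Nduf (followed by a, b, c, s or v and a number), Sdh, Uqcr, Cox (numbers 4 to 8) or Atp5 and that had at least 50 unique molecular identifiers (UMIs, counts of distinct captured mRNA molecules) over both gene expression libraries. They were chosen by symbol, not by how they behaved, from 32245 gene symbols. The pattern matched 81 symbols, and Cox7b2 (0 UMIs), Cox8c (0 UMIs) and Cox8b (1 UMI) fell below the minimum. The members with the fewest UMIs were Cox6b2 with 150, Cox7a1 with 191 and Cox6a2 with 623. Complex I contributed 36 members, complex II 4, complex III 8, complex IV 13 and complex V 17. Complexes were assigned by symbol, so Ndufa4, a complex IV subunit, is counted in complex I throughout. The 13 protein-coding genes of the mitochondrial genome (written mt-) served as the reference. A few nuclear subunit genes, such as Cox4i1, Ndufab1 and Cyc1, lie outside the symbol pattern and are treated as a separate list.

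The libraries came from BALB/c mice, 6 weeks old, bearing tumours grown under the skin from CT26, a colon carcinoma line of that strain. The control mice received PBS and the treated mice 100 µg of the anti-CTLA-4 antibody 9H10, which blocks an inhibitory receptor of T cells, in each case into the peritoneum on days 5, 8 and 11 after inoculation, and were sacrificed on day 13. The labels call the material tissue, and it was taken apart with a tumour dissociation kit before single cells were captured in droplets for 5' sequencing. Each treatment had 1 gene expression library and 1 T cell receptor library, and the number of mice behind a library was not given. With 1 library per treatment there was no test of treatment: intervals below are 95% intervals of counting error only, and treatment, animals, dissociation, library and sequencing run cannot be told apart.

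In the respiratory chain, complex I (NADH dehydrogenase) and complex II (succinate dehydrogenase) pass electrons to ubiquinone, complex III passes them to cytochrome c and complex IV (cytochrome c oxidase) to oxygen. Complexes I, III and IV pump protons, and complex V (ATP synthase) uses the proton gradient to make ATP. Complexes I, III, IV and V combine nuclear subunits with subunits encoded in mitochondrial DNA, whereas complex II is wholly nuclear. The catalytic cores include the mt- subunits, while many nuclear subunits are small accessory proteins of 1 membrane span. Nuclear respiratory factor 1 (NRF1), GABP and other ETS proteins, YY1 and the ERR receptors are known regulators of the nuclear genes.

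Promoter letters are shown for 8 members, chosen after their values were seen, of which 4 were higher and 4 lower with anti-CTLA-4 in every class of cells compared below, because the same motifs stood before genes of both kinds. Each line reads 5' to 3' on the gene's strand, upstream of its RefSeq start, in build GRCm38.p6, and the capitals mark the NRF1 letters GCGCATGC or the ETS letters CCGGAAG on either strand, overlapping matches joined.
Atp5k: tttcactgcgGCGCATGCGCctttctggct
Atp5l: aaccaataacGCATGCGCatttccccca
Atp5g2: ggctccggccGCGCATGCGCagagccttcc
Sdhb: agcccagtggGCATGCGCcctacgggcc
Atp5e: acggccacagCTTCCGGtagccgctcg
Uqcr11: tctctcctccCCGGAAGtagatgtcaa
Atp5h: aaggagagaaCTTCCGGcaactctctt
Ndufs3: ccgcgtccgcCCGGAAGaagagtcact
These stretches lay at chr5:108434430-108434459 (minus strand) for Atp5k, chr9:44920965-44920992 (minus) for Atp5l, chr15:102671070-102671099 (minus) for Atp5g2 and chr4:140961207-140961234 (plus) for Sdhb. The ETS matches lay at chr2:174464187-174464213 (minus) for Atp5e, chr10:80406871-80406897 (minus) for Uqcr11, chr11:115419941-115419967 (minus) for Atp5h and chr2:90904732-90904758 (minus) for Ndufs3. GENCODE M21 places an exon over some of these bases for Atp5k, Atp5g2, Sdhb, Atp5h and Ndufs3, so the start of transcription differs between the annotations there. Atp5k and Atp5l (subunits e and g of ATP synthase), Atp5e (its epsilon subunit) and Uqcr11 (a small complex III subunit) were on the higher side, and Atp5g2 (a gene of the proton-carrying c ring), Sdhb (the iron-sulfur subunit of complex II), Atp5h (subunit d of ATP synthase) and Ndufs3 (a core subunit of complex I) were on the lower side.

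RefSeq windows of 250 bases before to 50 after the start were found for 65 of the 78 members, 70 windows in all. GCGCATGC occurred in 10 of them (14.3%), against 2.71% of all 32851 windows and 3.52% of the 21263 windows of protein-coding genes. CCGGAAG occurred in 17 windows (24.3%, against 8.86% of all and 11.6% of coding windows), and the YY1 letters AAGATGGC in 9 (12.9%, against 2.75% and 3.05%). The ERR letters TCAAGGTCA were present in 2 windows, those of Atp5g3 and Sdhd (2.86%, against 0.423% and 0.334%). GGGCGG, a GC box letter set of SP factors, occurred in 38.6% of member windows, 35.7% of all windows and 46.2% of coding windows. Both strands were searched for each motif. A match is a description of letters and not a shown binding site.

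The control library held 5649 barcodes with 86478313 UMIs and the anti-CTLA-4 library 4186 barcodes with 19989467 UMIs, of which 5242 and 3950 cells were kept. Members made up 2.37% and 1.98% of all UMIs and the mt- genes 1.38% and 1.71%, and 20 barcodes occurred in both libraries. Clusters were named from marker genes, and the libraries differed strongly in makeup. T-like cells numbered 377 in the control and 2131 in the anti-CTLA-4 library, B-like cells 72 and 620, and monocyte/macrophage-like cells 1113 and 447. The control held 2568 cells in unnamed clusters that lacked Ptprc, the gene for the leukocyte antigen CD45, against 21 in the anti-CTLA-4 library. These Ptprc-negative cells are called by that absence and were not given a cell type. T-like cells, NK-like cells (231 and 104), monocyte/macrophage-like cells and fibroblast-like cells (146 and 124) had at least 100 cells in each library and are the 4 classes compared between treatments. All 8 T markers were detected in T-like cells of both libraries, at a summed 42.0 per 10000 UMIs in the control and 43.7 with anti-CTLA-4. The make-up of this class still differed. Its summed regulatory T cell markers stood at 10.7 per 10000 in the control and 4.39 with anti-CTLA-4. Cluster 13, with Foxp3 and Ctla4, held 101 of its control and 174 of its treated cells, and cluster 12 held 17 and 272. The part of this make-up in the T-like ratios below was not tested. In NK-like cells the summed NK markers stood at 119.6 per 10000 in the control and 48.9 with anti-CTLA-4, and the T markers at 11.0 and 14.8. This class thus differed in its own markers between libraries, and their part in its ratios below was not tested. Different clusters filled the monocyte/macrophage class: a C1q-rich cluster held 436 of its control cells and 42 of its treated cells, and an Arg1-rich cluster 489 and 348.

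Across classes, the summed level of the nuclear genes ranged widely and was lowest in neutrophil-like cells in both libraries. It is given as UMIs of the members per 10000 UMIs of the class, first in the control and then in the anti-CTLA-4 library. The sum was 236 and 270 in monocyte/macrophage-like cells, 236 and 221 in dendritic-like cells (64 and 55 cells), 217 and 235 in keratinocyte-like cells (169 and 99), 210 and 198 in NK-like cells, and 199 and 193 in T-like cells. B-like cells stood at 182 and 194, fibroblast-like cells at 172 and 161, and neutrophil-like cells at 100.2 and 40.1 (83 and 219 cells). Plasma-like cells, 93 of them and all in the anti-CTLA-4 library, had 164, and the Ptprc-negative control cells had 240. The control values of monocyte/macrophage-like, dendritic-like and Ptprc-negative cells lay between 236 and 240, closer to each other than the libraries were within any of the 8 classes named here for both, so that neighbours in this order are not separated. Neutrophil-like cells lay below every other class in each library, at a median of 933 and 1658 UMIs per cell.

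**Figure D1:**
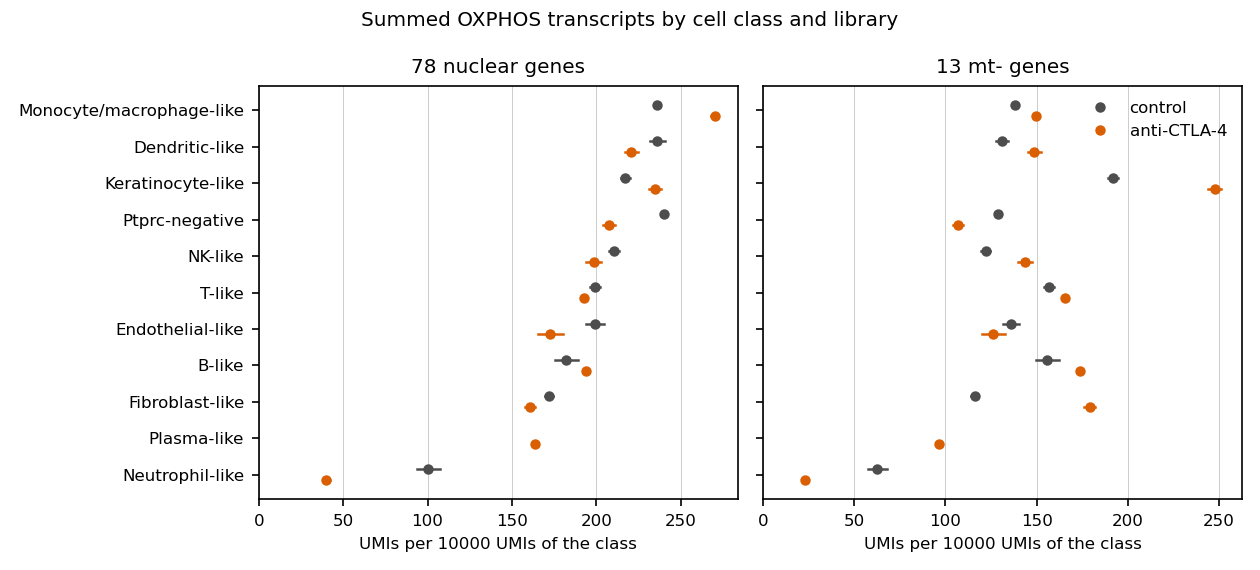
Summed UMIs of the 78 nuclear genes and of the 13 mt- genes per 10000 UMIs by class and library, with 95% Poisson intervals that cover counting error only. Neutrophil-like cells are lowest in both libraries, and the fibroblast-like mt- sum is 116 in the control and 179 with anti-CTLA-4.

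The low neutrophil level moved with free RNA, the transcripts of broken cells that enter every droplet. From 501 genes of the Ptprc-negative cells, free RNA was estimated at 33.1% of neutrophil-like UMIs in the control and 18.4% in the anti-CTLA-4 library, and after its subtraction the nuclear sum was 36.2 and 13.5. In T-like cells the estimate was 9.40% and 1.45% and the subtracted sums, 195 and 192, stayed close to those above. The estimate was 25.9% and 22.8% in monocyte/macrophage-like cells. With anti-CTLA-4 it was 0.627% in B-like and 2.16% in NK-like cells, but 40.8% in keratinocyte-like and 60.0% in endothelial-like cells. Fibroblast-like cells express the estimating genes themselves, and the estimate passed 100% there, so none was subtracted. Whether keratinocyte-like and endothelial-like cells also express some of these genes was not tested, so their estimates can be too high.

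Most members were lowest in the same class. Among the 76 members with at least 500 UMIs, compared over the 9 classes with 50 cells or more in the library, neutrophil-like cells had the lowest level for 66 in the control and for 71 with anti-CTLA-4. Monocyte/macrophage-like cells had the highest level for 26 and 37 members, keratinocyte-like cells for 15 and 18, and the Ptprc-negative cells for 19 in the control. The most even member in the control was Atp5l, whose highest class level was 1.79 times its lowest, followed by Ndufa3 at 1.94, Cox6b1 at 1.95, Ndufa7 at 1.98 and Cox8a at 2.07. With anti-CTLA-4, Ndufb9 (2.14), Ndufa7 (2.42) and Cox8a (2.48) were the most even. Cox6a2 was the least even, with no UMI in B-like cells of either library.

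Within each complex, the genes with the most UMIs over both libraries, which the larger control library dominates, were Ndufb9 and Ndufa7 (accessory subunits) for complex I, Sdhb and Sdhd (the iron-sulfur subunit and a membrane anchor) for complex II, Uqcrh and Uqcrq (small subunits) for complex III, Cox8a and Cox6c for complex IV, and Atp5g2 and Atp5g3 (both genes of the c ring) for complex V. In the anti-CTLA-4 library alone the order differed. Ndufa4 (7526 UMIs), counted in complex I by its symbol, and Ndufa6 (6804) led that group. Atp5e (16912) led complex V, and Cox7c (11681) stood after Cox8a (18483) in complex IV. Cox8a had 12.3 and 13.5 UMIs per 10000 in monocyte/macrophage-like cells, 10.8 and 8.67 in T-like cells, 8.52 and 6.99 in fibroblast-like cells and 17.6 in the Ptprc-negative control cells. Cox8a was thus above 5 per 10000 in every class with 50 cells, neutrophil-like cells included (10.0 and 5.45). Among the named classes Uqcrh was highest in T-like cells, at 8.02 and 8.55, and stood at 6.60 and 7.93 in NK-like and 4.86 and 6.12 in monocyte/macrophage-like cells. Sdhb stood at 1.98 and 1.55 in T-like cells, 1.26 and 0.673 in fibroblast-like cells, 1.04 and 0.310 in neutrophil-like cells and 2.43 in the Ptprc-negative control cells.

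The balance between the mitochondrial and the nuclear genome also differed between classes. The quotient of mt- to nuclear UMIs was 0.787 in control T-like cells and 0.858 with anti-CTLA-4, 0.856 and 0.896 in B-like cells, and 0.883 and 1.055 in keratinocyte-like cells. It was lower in monocyte/macrophage-like cells (0.586 and 0.554) and plasma-like cells (0.590), and it stood at 0.580 and 0.723 in NK-like, 0.555 and 0.674 in dendritic-like and 0.674 and 1.114 in fibroblast-like cells. T-like and B-like cells therefore had more mt- UMIs for each nuclear subunit UMI than monocyte/macrophage-like cells. For T-like cells this held within complexes I, III, IV and V: the complex IV quotient was 2.04 and 2.12 in T-like cells and 1.43 and 1.28 in monocyte/macrophage-like cells, and that of complex V 0.328 and 0.372 in T-like cells and 0.269 and 0.215 in monocyte/macrophage-like cells. The quotients compare UMI counts and are meant for comparison between classes, not as molecules per length. The limit of 15% mt- UMIs per cell acts on every mt- value given here.

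**Figure D2:**
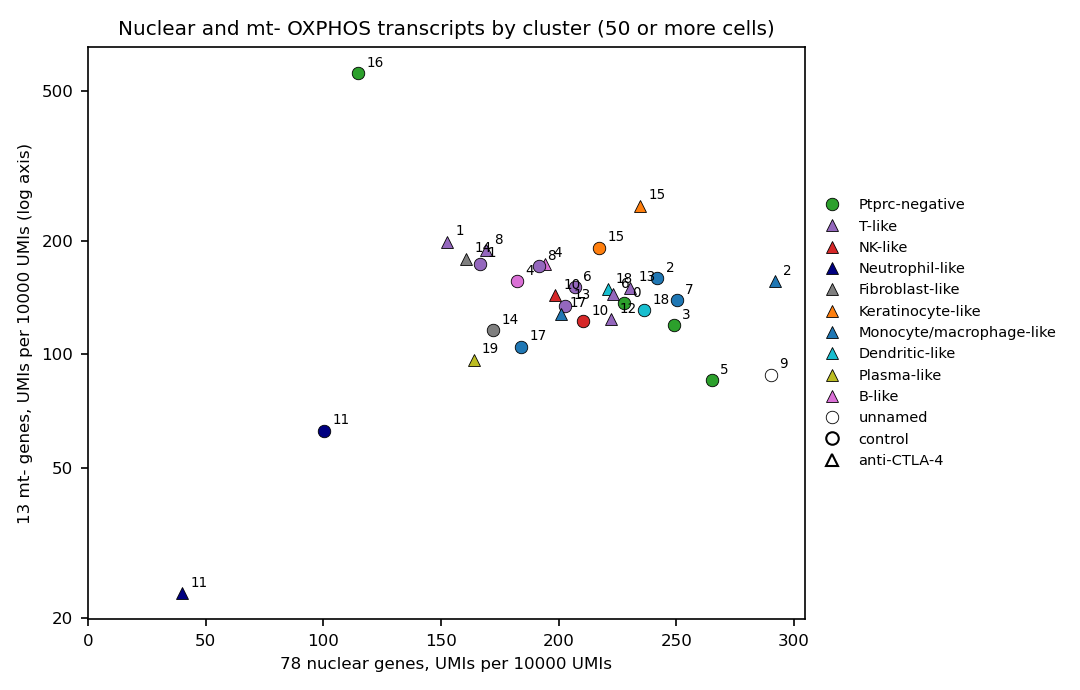
Summed nuclear level (x axis, linear) against summed mt- level (y axis, log), both in UMIs per 10000, for each cluster with 50 or more cells in a library; numbers are clusters, colours are classes, circles are the control and triangles anti-CTLA-4. Cluster 16 of the Ptprc-negative cells stands apart, at 115 nuclear and 557 mt-, and neutrophil-like cells (cluster 11) lie at the lower left.

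Clusters inside a class differed too. Among T-like clusters in the anti-CTLA-4 library, the nuclear sum was 152 in cluster 1, led by Lef1 and Tcf7, and 169 in cluster 8, led by Cd8b1 and Ccr7. It was 223 in cluster 6, led by Cxcr6 and Icos, 222 in cluster 12, with Cd8b1, Gzmb and Pdcd1, and 231 in cluster 13, with Foxp3 and Ctla4. The mt- sum ran the other way, at 199 and 189 in clusters 1 and 8 against 144, 124 and 150 in clusters 6, 12 and 13. In the control the nuclear sum was 166 and 192 in clusters 1 and 8 and 207 and 203 in clusters 6 and 13. The clusters were drawn from the same cells' expression, so these orders are a description. Among the Ptprc-negative control clusters, the cluster led by cell cycle genes had 265 nuclear and 85.3 mt- UMIs per 10000, the cluster led by Bnip3 and Ankrd37, genes known to respond to low oxygen, 249 and 120, and cluster 16, led by the nuclear RNAs Neat1 and Malat1, 115 and 557. Cluster 9 stayed unnamed, had a median of 1037 UMIs per cell and was led by haemoglobin genes, with 290 nuclear and 88.3 mt- UMIs per 10000 in the control.

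Isoform choice set some classes apart. Cox6a2 (chr7:128205435-128206387, minus strand), the form of complex IV subunit 6a known from heart and skeletal muscle, was found in the dendritic-like cluster and almost nowhere else. Of its UMIs in kept cells, 262 of 313 in the control and 281 of 285 with anti-CTLA-4 came from this cluster. There it was split by Siglech, a marker of plasmacytoid dendritic cells. A Cox6a2 UMI was present in 29 of 32 control cells with a Siglech UMI (90.6%, 75% to 98%, exact Clopper-Pearson) and in 15 of 15 treated cells with one, but in 0 of 32 and 0 of 40 without, where upper limits of 10.9% and 8.81% applied. Every other cell gave the background: 33 of 5178 control cells (0.637%) and 2 of 3895 treated cells (0.0513%). Median depth was 4378 and 7711 UMIs in the Siglech cells against 7553 and 3167 in the other cells. Cox6a2 reached 17.4 and 25.6 UMIs per 10000 in the Siglech cells, beside 4.91 and 4.11 of the general form Cox6a1. Cox6a2 also helped define this cluster, so its presence there is a description. The rare Cox6b2 and Cox7a1, testis and muscle forms, were spread over several classes: monocyte/macrophage-like cells gave 24 of 48 Cox6b2 UMIs in the control and 22 of 89 with anti-CTLA-4, and 31 of 110 and 35 of 72 Cox7a1 UMIs.

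Atp5g1, Atp5g2 and Atp5g3 encode the same mature c ring protein with different import signals. Plasma-like cells drew 29.4% of these UMIs from Atp5g1 (27.8 to 31.0), more than any other class with 50 cells. T-like cells drew 12.4% in the control and 15.1% with anti-CTLA-4, NK-like cells 13.5% and 14.8%, B-like cells 15.1% and 16.9%, monocyte/macrophage-like cells 21.2% and 20.6% and dendritic-like cells 20.8% and 19.0%. The B-like and plasma-like intervals of the anti-CTLA-4 library did not overlap (15.8 to 18.1 for B-like cells). In fibroblast-like cells the share was 20.1% (18.4 to 21.9) in the control and 13.9% (11.7 to 16.3) in the anti-CTLA-4 library.

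Cox7a2l, a relative of complex IV subunit Cox7a2, made up 59.1% of Cox7a-family UMIs in control T-like cells (55.2 to 63.0) and 55.6% in treated ones (54.3 to 56.9). B-like cells had 51.6% and 51.1% and dendritic-like cells 43.1% and 44.4%. Lower shares were found in NK-like cells (38.4% and 30.9%), monocyte/macrophage-like cells (36.4% and 25%), fibroblast-like cells (39.3% and 35.8%) and plasma-like cells (27.9%). T-like cells were the highest class in both libraries and exceeded NK-like cells by more than the counting intervals, 34.6 to 42.4 in the control and 25.8 to 36.3 with anti-CTLA-4 for NK-like cells.

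**Figure D3:**
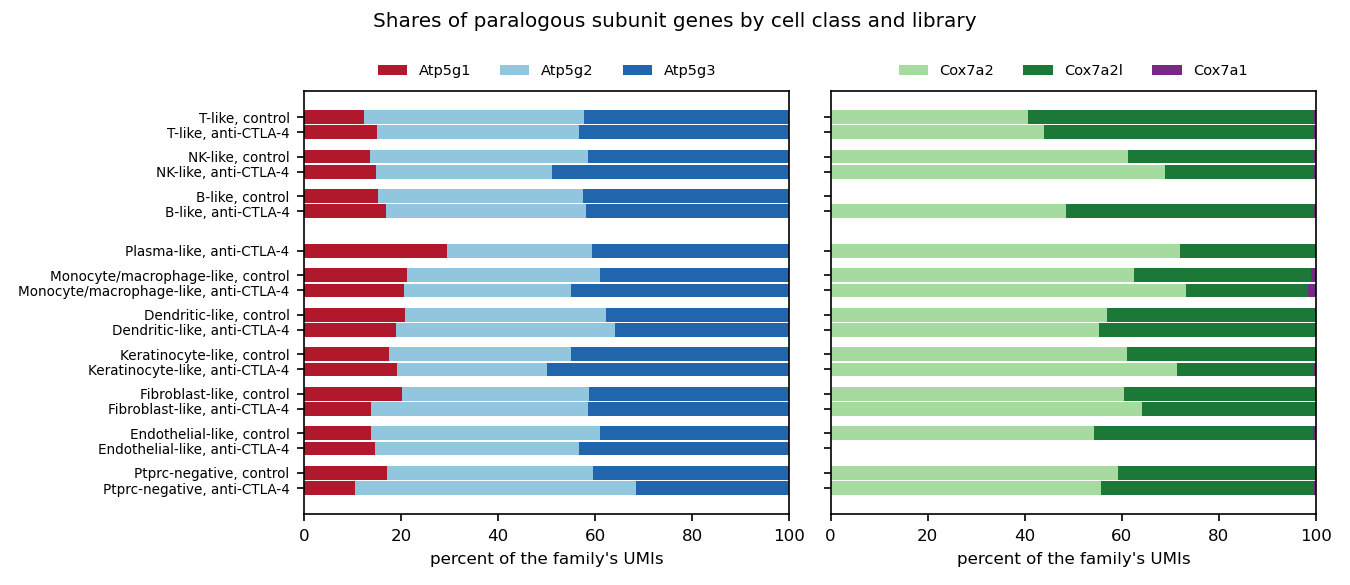
Stacked bars of the share of each gene in its family's UMIs, in percent, by class and library, for Atp5g1 to Atp5g3 (left) and the Cox7a family (right); a blank row had too few family UMIs or no cells. Atp5g1 is highest in plasma-like cells (29.4%) and Cox7a2l in T-like cells (59.1% in the control and 55.6% in the anti-CTLA-4 library).

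Between treatments, the summed nuclear level moved little in T-like, NK-like and fibroblast-like cells and was higher in monocyte/macrophage-like cells. The ratio of anti-CTLA-4 over control was 0.969 in T-like cells (0.954 to 0.983), 0.943 in NK-like cells (0.918 to 0.969), 0.935 in fibroblast-like cells (0.914 to 0.955) and 1.14 in monocyte/macrophage-like cells (1.13 to 1.16). Directions in T-like and monocyte/macrophage-like cells depended on settings and on the cells or members used. Of 12 alternatives, 3 gave T-like ratios above 1 (up to 1.136 in cluster 13 alone). Of 11, 2 gave monocyte/macrophage-like ratios below 1 (down to 0.958 with members of at least 350 nt of coding sequence alone). The mt- sum had ratios of 1.056 (1.038 to 1.075), 1.175 (1.137 to 1.214), 1.545 (1.509 to 1.581) and 1.084 (1.070 to 1.098) in T-like, NK-like, fibroblast-like and monocyte/macrophage-like cells. The monocyte/macrophage-like mt- ratio fell below 1 in 2 of 11 alternatives (0.918 and 0.980) and the T-like one in 1 of 12 (0.913). The fibroblast-like mt- ratio, 116 to 179 per 10000, was the largest of these 8 ratios, and it ranged from 1.401 to 1.557 over its alternatives.

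Single members moved more than their sums, and in opposite directions. Genes with at least 50 UMIs in a class over both libraries were compared, 8664 in T-like cells, and a member was counted when it changed by at least 1.5-fold in these 2 libraries. In T-like cells 7 of 75 members were at least 1.5-fold higher and 0 lower, against 13.5% and 12.2% of all genes compared. In NK-like cells 4 of 74 were higher and 9 lower, against 18.9% and 13.5% of all genes. In monocyte/macrophage-like cells 10 of 76 were higher and 0 lower, against 15.7% and 14.6%. In fibroblast-like cells 5 of 74 were higher and 8 lower, against 19.4% and 16.5%. At this fold, and over whole classes, the members' share was below that of all genes in each class and direction. By another rule, an interval that lay wholly above or below 1, 13 members were above and 21 below in T-like cells, against 10.2% and 15.3% of all genes. In NK-like cells 9 were above and 18 below (19.7% and 14.4% of all genes), in monocyte/macrophage-like cells 32 and 16 (23.8% and 23.4%) and in fibroblast-like cells 9 and 22 (22.2% and 20.3%). By this rule the members' share exceeded that of all genes above 1 in T-like and monocyte/macrophage-like cells and below 1 in T-like, NK-like and fibroblast-like cells. Such intervals narrow as UMIs increase, so the rule calls smaller differences in genes with more UMIs. In single clusters with 100 cells or more in each library, 9 of 75 members were at least 1.5-fold higher and 7 lower in T-like cluster 1, against 26.3% and 13% of all genes. In T-like cluster 13, 14 of 74 were higher and 0 lower, against 13.5% and 15.2%, and in monocyte/macrophage-like cluster 2, 11 of 75 were higher and 0 lower, against 13.8% and 8.53%. Their median log2 ratio was -0.10 in T-like cells, -0.14 in NK-like, 0.07 in monocyte/macrophage-like and -0.19 in fibroblast-like cells, beside -0.05, 0.06, 0.01 and 0.03 for all genes.

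**Figure D4:**
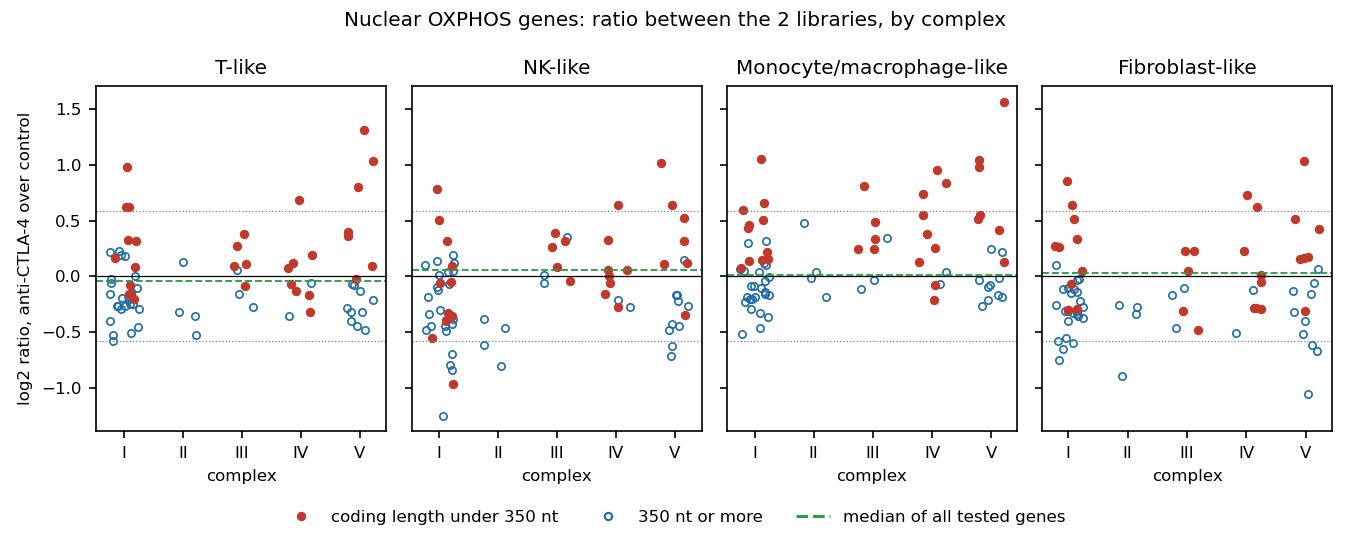
Log2 ratio of anti-CTLA-4 over control for each tested member, by complex, in the 4 compared classes: filled red points are coding lengths under 350 nt, open blue points longer ones, the dashed line is the median of all tested genes and dotted lines mark 1.5-fold. The members at least 1.5-fold higher are all red, and the complex II members are all blue.

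Which members were higher and which lower followed the length of their coding sequence. Of the 74 members compared in all 4 classes, 15 were above 1 in every class and 22 below 1 in every class, against 508 and 595 of all 2650 genes compared. Coding length was taken from the principal transcripts of GENCODE M21, and a division at 350 nt was chosen after the values were seen. Of 31 members under 350 nt, 15 were higher in every class and 0 lower in every class. Of 43 members of 350 nt or more, 0 were higher in every class and 22 lower. Spearman correlations of ratio with coding length across members were -0.58 in T-like cells (75 members), -0.58 in NK-like (74), -0.63 in monocyte/macrophage-like (76) and -0.51 in fibroblast-like cells (74), given as a description because members share libraries and depth. With the length of the whole transcript they were weaker, at -0.27, -0.38, -0.35 and -0.31, and over the other genes that correlation had the opposite sign, at 0.21, 0.34, 0.35 and 0.33. Under 250 nt the median member log2 ratio was 0.33, 0.32, 0.61 and 0.23 in T-like, NK-like, monocyte/macrophage-like and fibroblast-like cells, and from 500 nt to below 800 nt it was -0.31, -0.44, -0.18 and -0.36. At 800 nt or more it was -0.21, -0.39, 0.02 and -0.31, so the ratio did not keep falling with length, and in monocyte/macrophage-like cells 7 of 14 of these longest members were above 0.

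Short cytosolic ribosomal protein genes were also mostly higher. Of 18 under 350 nt, 14 were higher in every class and 0 lower, and of 63 longer ones 5 were higher and 35 lower. In T-like cells 19 of the 32 ribosomal protein genes from 350 nt to below 500 nt were above 0, with a median log2 ratio of 0.07, against 2 of 16 members and a median of -0.17. Rps29, Rps28 and Rpl38, each with a short coding sequence, were 1.92-fold to 2.87-fold higher with anti-CTLA-4 in these classes. Rpl41, with a still shorter one of 75 nt, was 1.55-fold to 1.84-fold higher. Other genes did not divide this way by coding length. Of 185 under 350 nt, 20 were higher in every class and 71 lower, and of 2274 longer ones 438 were higher and 461 lower. By whole transcript, though, other genes under 400 nt had median log2 ratios of 0.37, 0.79, 0.61 and 1.12 in T-like, NK-like, monocyte/macrophage-like and fibroblast-like cells. These came from 46, 2, 6 and 3 genes. From 500 nt to below 700 nt the medians were -0.27, -0.21, -0.11 and -0.25. Library and treatment cannot be told apart in these patterns of length. With the 44 members of 350 nt or more alone, the nuclear sum had ratios of 0.847 in T-like, 0.824 in NK-like, 0.958 in monocyte/macrophage-like and 0.792 in fibroblast-like cells, all below 1. No member of that length was at least 1.5-fold higher in any of the 4 classes. The division was chosen from these same ratios, so these values restate it.

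**Figure D5:**
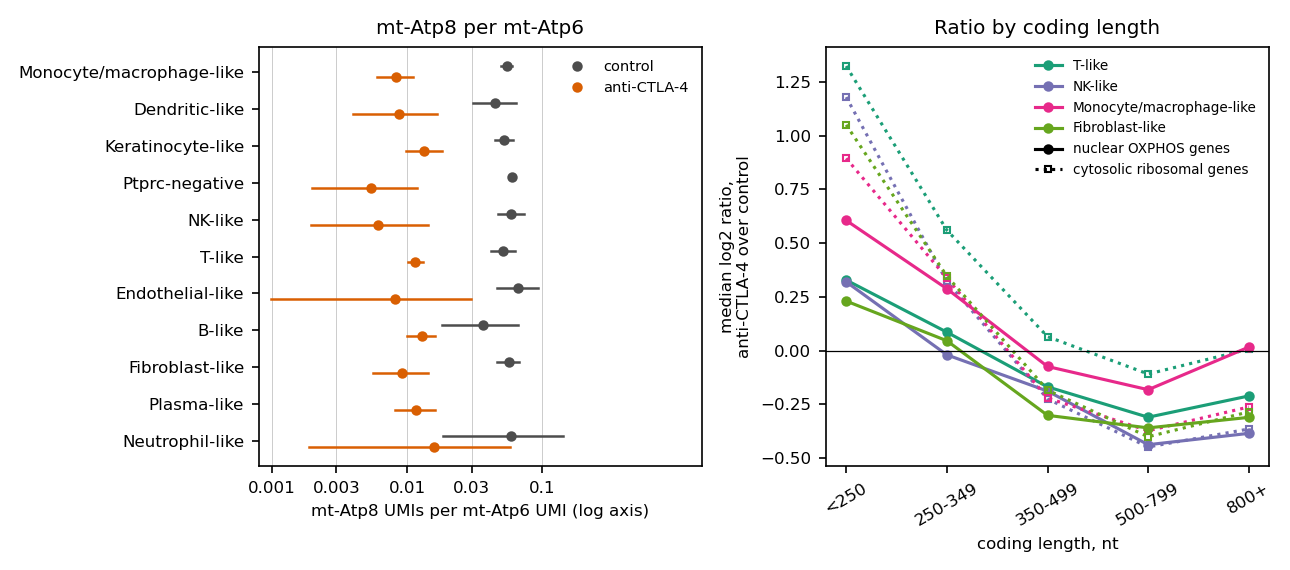
Left, mt-Atp8 UMIs per mt-Atp6 UMI (log axis) by class and library with 95% intervals for counting error; right, median log2 ratio of anti-CTLA-4 over control by coding length (nt) for members (solid) and cytosolic ribosomal protein genes (dotted) in the 4 classes. The mt-Atp8 quotient is lower with anti-CTLA-4 in every class that has both libraries, and the member medians are above 0 below 250 nt and below 0 from 500 nt to below 800 nt in each class.

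Among the mitochondrial genes, a pair on 1 transcript differed between the libraries. mt-Atp8 and mt-Atp6 are read from 1 shared mRNA, yet mt-Atp8 UMIs per mt-Atp6 UMI stood at 0.0513 in control T-like cells and 0.0115 with anti-CTLA-4, and at 0.0543 and 0.00825 in monocyte/macrophage-like cells. Alone among the mt- genes, mt-Atp8 was lower in all 4 classes, with ratios of 0.255 in T-like, 0.121 in NK-like, 0.149 in monocyte/macrophage-like and 0.258 in fibroblast-like cells. mt-Nd3, a short complex I gene, had ratios of 4.26, 2.52, 3.18 and 5.50 in the same order. Without both genes the mt- sum ratios were 1.055, 1.179, 1.087 and 1.545, nearly those with them. Of the mt- genes compared, 1 of 13 was at least 1.5-fold higher in T-like cells, 4 of 12 in NK-like, 1 of 13 in monocyte/macrophage-like and 8 of 12 in fibroblast-like cells, and mt-Atp8 was the 1 lower gene in each. In fibroblast-like cells mt-Nd1 stood at 3.98 per 10000 in the control and 7.62 with anti-CTLA-4 (1.91-fold), mt-Co1 at 20.9 and 34.0 (1.63-fold) and mt-Co3 at 22.7 and 34.1 (1.5-fold).

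Complex V held the highest ratio in T-like, NK-like, monocyte/macrophage-like and fibroblast-like cells. Atp5k (chr5:108433244-108434448, minus strand), subunit e, stood at 0.434 UMIs per 10000 in control T-like cells and 1.09 with anti-CTLA-4, a ratio of 2.52 (1.83 to 3.55), and at 0.636 and 1.89 in monocyte/macrophage-like cells, a ratio of 2.97 (2.56 to 3.45). Fibroblast-like cells had 0.376 and 0.775 (2.06, 1.39 to 3.08), and in NK-like cells, at 0.412 and 0.640, the interval of 0.892 to 2.67 held 1. Atp5md (chr19:47083464-47090647, minus strand) and Atp5mpl (chr12:111961375-111966977, minus strand) encode small proteins that hold ATP synthase dimers together. Atp5md went from 2.02 to 4.10 in NK-like cells (2.02-fold, 1.62 to 2.53) and from 2.81 to 5.78 in monocyte/macrophage-like cells (2.06-fold, 1.91 to 2.22), and Atp5mpl from 1.64 to 3.37 in T-like cells (2.05-fold, 1.74 to 2.43). Atp5e was 1.25-fold higher in NK-like cells, 7.35 to 9.16 per 10000. All 4 of these genes had ratios above 1 in the 4 classes, and their coding lengths ran from 156 to 213 nt.

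Other members of complex V had ratios below 1. The head subunits Atp5a1 and Atp5b, which form the catalytic sites, had ratios of 0.953 and 0.820 in T-like, 1.11 and 0.887 in NK-like, 1.18 and 0.992 in monocyte/macrophage-like and 1.04 and 0.758 in fibroblast-like cells. Atp5g2 (chr15:102662864-102672352, minus strand) went from 8.74 to 6.28 per 10000 in T-like cells (0.718, 0.666 to 0.774) and from 9.00 to 5.45 in NK-like cells (0.606, 0.518 to 0.706). Atp5g1 (chr11:96068852-96075670, minus strand) went from 3.37 to 1.61 in fibroblast-like cells (0.479, 0.390 to 0.586), while its T-like ratio of 0.951 had an interval that held 1. Atp5c1, the gamma subunit of the rotating shaft, was below 1 in all 4 classes, with ratios of 0.736, 0.713, 0.830 and 0.625 in T-like, NK-like, monocyte/macrophage-like and fibroblast-like cells. Atp5d, the delta subunit, had 0.758 in T-like and 0.650 in fibroblast-like cells, and Atp5o, of the peripheral stalk, 0.643 in NK-like cells (0.741 as a mean of per-cell shares). The c ring genes have near-identical copies elsewhere in the genome, so their counts depend on how the authors' counting treated reads shared with them.

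Complex I as a whole had ratios near 1, at 0.955 in T-like, 0.895 in NK-like, 1.032 in monocyte/macrophage-like and 0.922 in fibroblast-like cells. Its small accessory subunit Ndufa3 (chr7:3617373-3620327, plus strand) went from 1.13 to 2.24 per 10000 in T-like cells (1.98-fold, 1.62 to 2.43) and from 1.34 to 2.78 in monocyte/macrophage-like cells (2.07-fold, 1.86 to 2.31), and was 1.81-fold higher in fibroblast-like cells. Ndufa1, another accessory subunit, was 1.72-fold higher in NK-like and 1.56-fold in fibroblast-like cells. The lowest complex I members differed by class. Ndufb8 had a ratio of 0.697 in T-like cells (2.40 to 1.67 per 10000), Ndufa10 0.410 in NK-like cells (1.0 to 0.41 per 10000), with Ndufb3 at 0.50 and Ndufb5 at 0.573, and Ndufa8 0.589 in fibroblast-like cells. In monocyte/macrophage-like cells Ndufa12 had 0.696, Ndufs3 0.726, Ndufs4 0.776 and Ndufv2 0.795. Ndufs3 and Ndufv2 are core subunits of the part that faces the matrix. Both had ratios below 1 in the 4 classes, but the Ndufs3 interval in NK-like cells (0.467 to 1.1) and the Ndufv2 interval in fibroblast-like cells (0.690 to 1.22) held 1.

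Complex II had the lowest summed ratio of the 5 complexes in T-like, NK-like and fibroblast-like cells, and in monocyte/macrophage-like cells it lay beside complex I. Single clusters did not all keep this order: complex II was lowest in T-like cluster 13 (0.997), but in T-like cluster 1 the complex II ratio, 0.925, was above those of complexes IV (0.855) and V (0.908), and in monocyte/macrophage-like cluster 2 it was 1.328, the highest of the 5. Its sum had ratios of 0.839 in T-like (0.755 to 0.934), 0.676 in NK-like (0.546 to 0.832), 0.703 in fibroblast-like (0.586 to 0.841) and 1.028 in monocyte/macrophage-like cells (0.962 to 1.099). All 4 of its genes have coding lengths of 350 nt or more. Sdhb (chr4:140961203-140979193, plus strand) went from 1.26 to 0.673 per 10000 in fibroblast-like cells (0.533, 0.383 to 0.732) and from 1.98 to 1.55 in T-like cells (0.784, 0.671 to 0.920). Sdha, the flavoprotein, differed between classes, with 0.563 (0.335 to 0.909) in NK-like cells and 1.39 (1.17 to 1.66) in monocyte/macrophage-like cells. Sdhd, a membrane anchor, had 0.643 in NK-like and 1.02 in monocyte/macrophage-like cells.

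Complexes III and IV leaned higher in monocyte/macrophage-like cells, with summed ratios of 1.273 (1.235 to 1.312) and 1.206 (1.184 to 1.230). Uqcr11 went from 2.48 to 4.35 per 10000 there (1.75-fold, 1.61 to 1.90) and Uqcrh, the hinge protein, from 4.86 to 6.12 (1.26-fold), while Uqcrc1, a core protein with a long coding sequence, had 0.980. In fibroblast-like cells Uqcrq was 0.713. Cox7c (chr13:86044816-86046904, minus strand), a small complex IV subunit, was at least 1.5-fold higher in each of the 4 classes: it went from 3.38 to 5.45 in T-like cells (1.61-fold), 3.73 to 5.81 in NK-like (1.56-fold), 4.81 to 8.62 in monocyte/macrophage-like (1.79-fold) and 3.73 to 6.17 in fibroblast-like cells (1.66-fold). As a mean of per-cell shares the fibroblast-like Cox7c ratio was 1.435, below that fold, and so was that of Ndufa1 (1.398), while the Cox6c ratio was 1.474 with a mitochondrial limit of 25%. Cox6c was 1.54-fold higher in fibroblast-like cells (4.69 to 7.21) and 1.67-fold in monocyte/macrophage-like cells. Cox8a went against its short length of 207 nt, with 0.801 (0.750 to 0.857) in T-like cells and 1.09 in monocyte/macrophage-like cells. Cox5a, a longer subunit, had 0.780 in T-like and 0.703 in fibroblast-like cells.

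Related gene lists moved as follows, as counts at least 1.5-fold higher and lower in T-like, NK-like, monocyte/macrophage-like and fibroblast-like cells. In the same order, 13.5%, 18.9%, 15.7% and 19.4% of all genes compared were higher and 12.2%, 13.5%, 14.6% and 16.5% lower. Glycolysis and hypoxia genes were lower in 9 of 19, 8 of 14, 0 of 19 and 11 of 18 and higher in 1, 1, 6 and 1, with median log2 ratios of -0.58, -0.63, 0.31 and -0.74. In fibroblast-like cells Pkm, the last glycolytic enzyme, went from 10.1 to 3.63 per 10000, and in monocyte/macrophage-like cells Vegfa, a vessel growth factor, from 1.39 to 4.01. The free RNA estimate was higher in control than in treated T-like and NK-like cells, as given above for T-like cells. Its genes were chosen for low levels in the treated ones, so this difference was partly set by that choice. The part of free RNA in these values was not tested. Mitochondrial ribosomal protein genes, which serve translation of the mt- mRNAs, were lower in 10 of 77, 15 of 45, 11 of 77 and 27 of 56 and higher in 1, 0, 0 and 0, with medians of -0.28, -0.39, -0.23 and -0.55. Their lower share in T-like (13.0%) and monocyte/macrophage-like cells (14.3%) was near that of all genes. Their examples include Mrpl38 in T-like cells (0.597 and 0.297 per 10000, ratio 0.50) and Mrps34 in NK-like cells (ratio 0.30). Cytosolic ribosomal protein genes were higher in 14 of 81, 9 of 81, 10 of 82 and 12 of 82 and lower in 1, 8, 5 and 5.

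Smaller mitochondrial lists were mixed in direction, and their counts are to be read beside the shares of all genes just given. Assembly factors in T-like cells, 10% higher and 15% lower, lay near those shares (13.5% and 12.2%). Genes of the TCA cycle and pyruvate dehydrogenase were higher in 2 of 18, 0 of 15, 0 of 18 and 2 of 17 and lower in 2, 2, 1 and 3. Fh1, fumarase, had a ratio of 0.61 in monocyte/macrophage-like and 0.45 in fibroblast-like cells. Assembly factors were higher in 4 of 40, 2 of 11, 4 of 38 and 2 of 14 and lower in 6, 4, 7 and 6. Cox17, which carries copper to complex IV, was 1.72-fold higher in NK-like and 1.69-fold in monocyte/macrophage-like cells. Regulators of mitochondrial biogenesis were higher in 3 of 17, 2 of 5, 6 of 14 and 3 of 5 and lower in 0, 1, 1 and 1, with Tfam, which packs and transcribes mitochondrial DNA, going from 0.411 to 1.23 per 10000 in NK-like cells (ratio 2.98). Subunits and carriers outside the symbol rule were higher in 0 of 9, 1 of 7, 2 of 10 and 0 of 8 and lower in 2, 2, 1 and 1. Cycs, cytochrome c, had ratios of 2.17 in NK-like and 1.53 in monocyte/macrophage-like cells, and Ndufab1 0.65 in T-like and 0.72 in fibroblast-like cells. Carriers and uncoupling genes were higher in 0, 0, 1 and 0 of 9 and lower in 1, 0, 0 and 1, and import and dynamics genes were higher in 3 of 18, 1 of 12, 4 of 18 and 3 of 14 and lower in 0, 0, 1 and 2.

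Cell state lists moved between the libraries too, with counts to be read beside the same shares of all genes. Cell cycle genes were lower in 6 of 15, 5 of 7, 14 of 15 and 3 of 6 and higher in 0, 0, 0 and 2. In monocyte/macrophage-like cluster 2 alone 3 of 9 were lower and 0 higher, against 8.53% and 13.8% of all genes. The median log2 ratio was -0.45 there and -1.39 over the whole class. Genes of dissociation and heat stress were higher in 1 of 17, 7 of 15, 0 of 17 and 7 of 17 and lower in 7, 2, 0 and 1. In fibroblast-like cells, where the mt- sum was 1.545-fold, Hspa1b, a heat shock protein, was 3.53-fold higher with anti-CTLA-4. The part of these lists in the members' ratios was not tested.

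Cycling cells, called from at least 2 of 15 cell cycle genes after each cell was thinned to 1000 UMIs, had higher nuclear levels in each class that held at least 25 of them. In treated T-like cells the nuclear sum was 268 in 58 cycling cells and 185 in 2011 others, a ratio of 1.454 (1.434 to 1.474), and 69 of 75 members were higher in the cycling cells. Their mt- sum was lower, at 119 against 169. In control monocyte/macrophage-like cells 78 cycling cells had 283 against 231 in 881 others (1.224), with 70 of 75 members higher, but there the mt- sum was higher too, at 175 against 129. In Ptprc-negative control cells the nuclear sums were 249 in 575 cycling cells and 236 in 1966 others (1.056), and the mt- sums 109 and 137. There 52 of 76 members were higher in the cycling cells. The share of all genes higher in cycling cells was not computed, so these counts do not set the members apart from other genes. In control T-like cells, 25 cycling cells had 230 nuclear and 160 mt- UMIs per 10000 and 300 others 195 and 145. Depth and cluster moved with the T-like difference: the cycling treated cells had a median of 13872 UMIs against 3313, and 19.0% of them lay in clusters 1 and 8 against 60.6% of the others.

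T cell clonotypes, groups of cells that share receptor sequences, also divided the T-like cells by nuclear level. With anti-CTLA-4, 448 cells of clonotypes found in 2 or more cells had a nuclear sum of 220 and an mt- sum of 137. The 1100 cells whose clonotype was found once had 190 and 168, and the 583 cells with no clonotype 165 and 198. In the control, 18 cells of clonotypes found in 2 or more cells had 208 nuclear and 196 mt- UMIs per 10000, 250 cells with a clonotype found once 204 and 144, and 109 without one 173 and 203. Cluster membership followed clonotype size, since 8.04% of the treated cells in expanded clonotypes lay in clusters 1 and 8 against 72.7% of those found once. Within clusters the order was not the same: in cluster 6 the nuclear sum was 221 in 189 expanded cells and 228 in 150 cells found once, and in cluster 12 it was 224 in 215 and 233 in 30.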

How the data were processed

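Gene expression was measured in 2 droplet libraries. The authors deposited UMI counts for each gene in each barcode without normalization, and per the submitters' processing notes they were made with Cell Ranger 5.0.0 on mm10 or GRCm38; the annotation release is not given in the sources used here. Deposited T cell receptor contigs, with UMI counts per contig, were joined by barcode; the B cell receptor contigs were not used.

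Cells were kept when 200 or more genes were detected and mt- UMIs did not exceed 15%. Scrublet marked 0 of 5482 control cells and 1 of 4083 treated cells, so the highest scores at the expected rate (240 and 133 cells) were removed instead. Both libraries were clustered together with scanpy 1.11.5 and leidenalg 0.10.2 (2000 variable genes, 30 components, 15 neighbours, Leiden resolution 1), and clusters were named from listed markers with thresholds set after the data were seen. Levels are UMI sums over a class's cells as a share of all its UMIs, per 10000. Intervals are exact (Poisson, conditional binomial or Clopper-Pearson, scipy 1.17.1), at 95%. Only the ratio intervals were tried on simulated data, with Poisson counts, the model they assume, so this checks the calculation alone. PCR and cell-to-cell variation are not covered.

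The members and lists were chosen with earlier results of these data known. Named are, per class, the 5 members with the highest and the 5 with the lowest ratio, ordered by the interval bound nearest to 1; per complex the 2 with the most UMIs; the isoform groups; the mt- genes; from each other list the 2 genes farthest from 1; and the members least and most even across classes. Other genes were named after their values were seen. Ndufc2, a member, was dropped from the list of genes outside the rule. Alternatives covered cell filters, doublets, resolution, denominator, cell weighting, free RNA, gene minimum and fold. Lengths come from GENCODE M21 (GRCm38), matched by Ensembl gene number.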

Additional observations from a re-analysis of the deposited data

Results flagged for a closer look

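The summed nuclear level went in opposite directions in the compared classes: the ratio of anti-CTLA-4 over control was 1.14 in monocyte/macrophage-like cells and 0.935 in fibroblast-like, 0.943 in NK-like and 0.969 in T-like cells. The difference between the classes was not tested, since each treatment had 1 library. The directions also turned with the processing: the T-like ratio was above 1 in 3 of 12 alternatives (up to 1.136), the monocyte/macrophage-like ratio below 1 in 2 of 11, and with members of at least 350 nt the ratios of all 4 classes were below 1.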

How the results depend on the processing

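No paired analysis was possible because each treatment had 1 library, and for the same reason none could be left out. Of 200 values under alternatives, 137 kept their direction and size. All 350 values of 40 named member ratios stayed on their side of 1, and 20 lay outside the reported interval. These ratios were picked as farthest from 1 in mostly the same cells, so a crossing was unlikely from the outset. With resolution 0.5 the T-like nuclear ratio was 1.049, the T-like mt- ratio 0.913, the monocyte/macrophage-like mt- ratio 1.122 and 2 T-like members were lower. With resolution 2 the monocyte/macrophage-like ratios were 0.997 nuclear and 1.048 mt-, with 3 members lower. With at least 500 detected genes these were 1.130 (monocyte/macrophage-like, nuclear) and 1.081 (T-like, mt-), and with doublets kept 1.126 (monocyte/macrophage-like, nuclear). A 10% mt- limit gave 1.159 nuclear and 1.030 mt- in monocyte/macrophage-like cells and 1 T-like member lower; a 25% limit gave 0.895 nuclear and 1.476 mt- in fibroblast-like and 1.058 mt- in monocyte/macrophage-like cells. Totals without mt-, ribosomal protein and receptor genes gave nuclear ratios of 1.017 in T-like, 0.914 in NK-like and 1.130 in monocyte/macrophage-like cells and 1.109 for T-like mt-. Mean per-cell shares gave mt- ratios of 0.918 in monocyte/macrophage-like, 1.023 in NK-like, 1.034 in T-like and 1.401 in fibroblast-like cells, nuclear ratios of 1.091 in monocyte/macrophage-like and 0.981 in NK-like cells, and 2 T-like, 2 monocyte/macrophage-like and 14 fibroblast-like members lower. Free RNA subtraction gave 0.988 (T-like, nuclear), 1.186 and 1.101 (monocyte/macrophage-like, nuclear and mt-) and 2 monocyte/macrophage-like members lower. Its estimate can be too high in monocyte/macrophage-like cells, and it could not be fitted in fibroblast-like cells. It can be too low in treated T-like and NK-like cells, whose levels entered the choice of its genes. At 2-fold, 2 T-like, 1 NK-like, 3 monocyte/macrophage-like and 1 fibroblast-like members were higher and 2 NK-like and 1 fibroblast-like lower. Intervals without 1 gave 13, 9, 32 and 9 higher and 21, 18, 16 and 22 lower in T-like, NK-like, monocyte/macrophage-like and fibroblast-like cells. Of all genes, 10.2%, 19.7%, 23.8% and 22.2% were higher and 15.3%, 14.4%, 23.4% and 20.3% lower by this rule.

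The settings that follow were chosen after seeing the data. Cluster 1 alone gave T-like ratios of 0.917 nuclear and 1.143 mt-, with 7 of 75 members lower against 13% of all genes. Cluster 13 alone gave T-like ratios of 1.136 and 1.116, with 14 of 74 members higher against 13.5% of all genes. Cluster 2 alone gave 1.207 and 0.980 for monocyte/macrophage-like cells. Members of at least 350 nt gave nuclear ratios of 0.847 in T-like, 0.824 in NK-like, 0.958 in monocyte/macrophage-like and 0.792 in fibroblast-like cells, with 0 members 1.5-fold higher in each. The cause was not tested beyond the make-up of each setting. Depth limits the rare members most: Cox6b2, Cox7a1 and Cox6a2 had under 50 UMIs, and no ratio, in the 4 classes, apart from Cox7a1 in monocyte/macrophage-like cells.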

Other observations

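In the Ptprc-negative control cells mt-Cytb outnumbered mt-Co1, with 1.62 mt-Cytb UMIs per mt-Co1 UMI (1.61 to 1.63, counting error only). The quotient was 1.86, 1.36, 1.58 and 1.33 in their clusters 0, 3, 5 and 16. All named classes of at least 50 cells lay between 0.375 (dendritic-like, control) and 0.923 (neutrophil-like, control), and 21 treated Ptprc-negative cells had 0.480. The same control cells had more mt- UMIs per nuclear UMI in complex III (1.253) than in complex IV (0.891), the reverse of every other named class in either library.

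A pair of subunit genes outside the symbol rule had most of their UMIs in few classes. Cox4i2, the low-oxygen form of complex IV subunit 4, had 95 of 142 UMIs in fibroblast-like cells in the control and 83 of 102 with anti-CTLA-4. Monocyte/macrophage-like cells gave 46 and 15 of these UMIs. Ndufa4l2, a relative of the complex IV subunit Ndufa4 known from low-oxygen tissues, had 395 of 782 UMIs in keratinocyte-like and 359 in fibroblast-like cells in the control, and 75 and 183 of 264 with anti-CTLA-4.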
